A study of Mus musculus with 8 samples.

Results

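The genes described here encode the receptors with which mouse cells sense mycobacteria and other microbes, and the adaptor that most of these receptors share: Tlr1, Tlr2, Tlr4, Tlr6, Tlr9, Cd14, Myd88, Clec4e, Clec7a and Nod2. They were chosen by name, as the host's sensors of complete Freund's adjuvant (CFA), and each gene is represented by its own probe set, one annotated to that gene alone. Of these 10 genes, 9 had such a probe set and were analysed, out of 12393 genes with a probe set of their own, and Nod2 was not analysed here. Tlr4 and Clec4e have 2 probe sets each, and the brighter one by its mean over 8 arrays stands for the gene.

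Lymph node (LN) RNA was measured on 8 Affymetrix arrays, 1 array per pool of at least 3 female and male mice of the C57Bl/6 strain aged 8 weeks. H3RKO mice, which lack the histamine H3 receptor, gave 2 untreated pools and 2 treated ones, the mice being killed 24 h after an injection of CFA or of CFA with pertussis toxin (CFA+PTX). Wild type (WT) mice gave the same numbers of pools. CFA holds heat-killed mycobacteria in mineral oil, and PTX is a toxin of Bordetella pertussis given with CFA when experimental autoimmune encephalomyelitis is induced. For the CFA+PTX arrays the sample titles mention only PTX while the descriptions name both agents, and the descriptions were followed. No mice given vehicle alone or PTX alone were analysed here, so the effect of the mycobacteria cannot be told apart from those of the oil and of the injection. The samples are whole LN, so fewer cells of a type and less RNA per cell cannot be told apart in any value below.

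Toll-like receptors (TLR) recognise conserved microbial molecules at the cell surface or in endosomes, and most of them signal through the adaptor protein encoded by Myd88 to switch on NF-kB and its inflammatory target genes. The C-type lectin receptors encoded by Clec4e (Mincle) and Clec7a (Dectin-1) recognise sugar-containing ligands and signal through the kinase encoded by Syk. Mycobacterial cell walls hold lipoproteins, glycolipids and peptidoglycan that engage TLR2 with its partners, Mincle and NOD2. Mycobacterial DNA engages TLR9, and killed mycobacteria are used as an adjuvant.

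The RNA carried the markers of LN, with the B cell genes Ms4a1, Cd79a and Cd79b at a log2 signal of 12.51 to 13.16 and the T cell genes Cd3d, Thy1 and Cd3g at 11.36 to 12.51 in every array. In gland genes 2 arrays stood apart from the others. WT untreated replicate 1 had a mean log2 signal of 10.24 over 7 salivary and lacrimal gland markers and WT CFA+PTX had 5.49, against 13.02 to 13.65 in the other arrays. In those other arrays the mean log2 signal over 9 B cell markers was 11.2 to 11.39, lower than that of the gland markers. Brightness also depends on the probe, so these means do not give the share of gland RNA. The 2 arrays that stood apart are the ones lower in gland signal, so leaving them out keeps the arrays with the most. Hrh3, the targeted gene, had a log2 signal of 7.20 to 7.29 in the arrays labelled H3RKO and 6.56 to 6.66 in the arrays labelled WT, from a probe set whose place relative to the deletion is not given in the sources used here, so that it does not check the labels.

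Among the 9 genes Myd88 had the brightest probe set, with 89.2% of all probe sets dimmer, followed by Clec7a (84.5%), Tlr1 (77.0%), Cd14 (67.1%) and Tlr2 (64.5%). Tlr4 (48.1%), Clec4e (41.4%), Tlr6 (38.5%) and Tlr9 (36.8%) were dimmer than the median probe set. These ranks are over the mean of all 8 arrays and describe probe sets, since brightness also depends on the probe and does not order the genes by RNA. The values carry no call of signal over background.

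The genes differed in how much they varied. Clec4e had the widest range over the 8 arrays (2.13-fold, SD 0.31 on the log2 scale), followed by Cd14 (1.78-fold, SD 0.26), Clec7a (1.6-fold, SD 0.24) and Tlr2 (1.40-fold, SD 0.20). Tlr9 (1.28-fold) varied about as much as the median probe set, which ranged over 1.25-fold. Tlr1 and Tlr4 (1.20-fold each), Tlr6 (1.18-fold) and Myd88 (1.15-fold) ranged less than that. Of all probe sets, 23.7% had a lower SD than Tlr6 and 20.3% a lower SD than Myd88. The 2 pools of one untreated group already differed by 0.31 (H3RKO) and 0.51 (WT) for Clec4e and by 0.31 and 0.36 for Cd14. For Clec7a the same gaps were 0.04 and 0.17, and for the median of all probe sets 0.10 and 0.12.

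**Figure D1:**
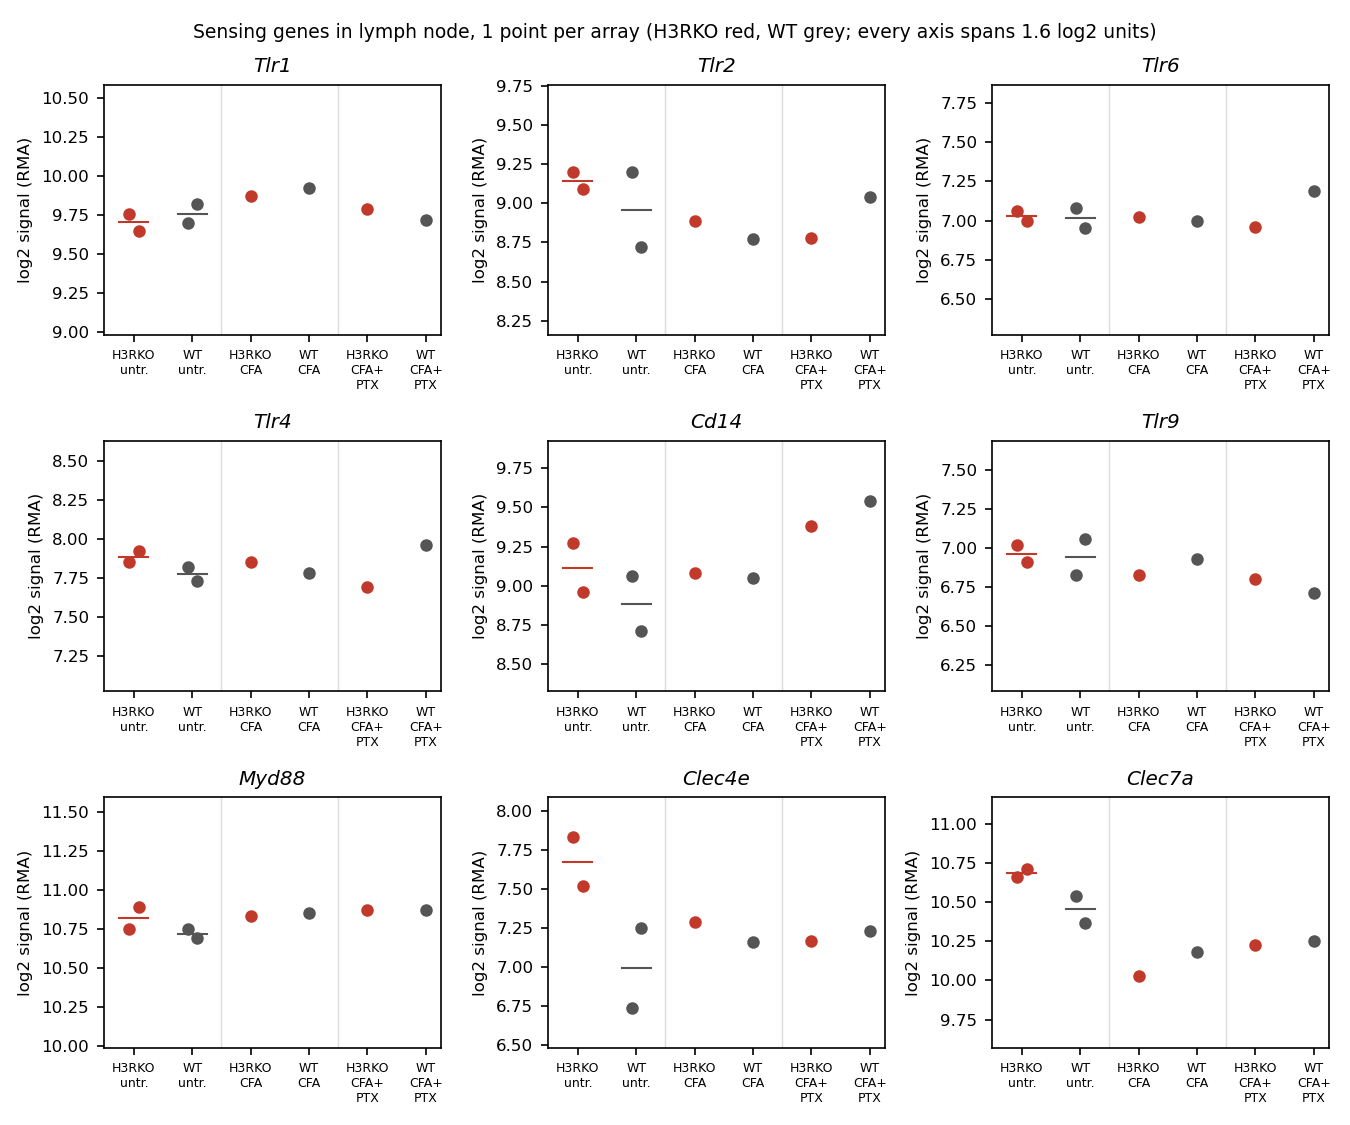
Log2 signal (RMA) of the 9 sensing genes in each of 8 LN arrays, by genotype and treatment, with H3RKO in red and WT in grey, lines at the mean of the 2 untreated arrays and 1.6 log2 units on every axis. Clec7a lay between 10.03 and 10.25 in the 4 injected arrays and between 10.37 and 10.71 in the 4 untreated arrays, and Clec4e was highest in the 2 untreated H3RKO arrays.

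The first comparison asked whether the sensors of CFA had changed 24 h after an injection that contains it. Over both genotypes, 4 injected arrays (CFA or CFA+PTX) were set against 4 untreated arrays in a linear model with genotype as a term (limma, which draws on all probe sets to estimate the spread of each), with Benjamini-Hochberg adjustment over 22626 probe sets. None of the 9 genes passed an adjusted p of 0.05 (0 of 9, with 0.0177% of all probe sets passing). At an unadjusted p under 0.05, 1 gene (Clec7a) differed both in limma and in the linear model without moderation, where 11.0% of all probe sets did in limma. The differences of the 9 genes, injected minus untreated, ran between −0.40 and 0.27 with a median of −0.01, against a median of 0.01 over all probe sets. The replicates are pools of mice, so no p-value measures the spread between mice, and each injected group has 1 pool per genotype. The spread in this model comes from the untreated pairs and from departures of the injected arrays from additive effects of genotype and treatment. A response that differed between genotypes would thus count as spread.

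Among the TLR that recognise lipopeptides, no gene was called. Tlr2, which pairs with TLR1 or TLR6 to recognise bacterial and mycobacterial lipoproteins, had log2 signals of 8.89 (H3RKO CFA), 8.77 (WT CFA), 8.78 (H3RKO CFA+PTX) and 9.04 (WT CFA+PTX), against 9.20 and 9.09 in untreated H3RKO LN and 9.20 and 8.72 in untreated WT LN. The injected arrays were lower than 3 of the 4 untreated arrays, and the groups overlapped because of the second WT pool. The difference was −0.18 ± 0.12 (SE), with a 95% interval of −0.47 to 0.11 and an adjusted p of 0.644 (limma). With 1 array left out the Tlr2 difference ran between −0.30 and −0.08. It was −0.30 without WT untreated replicate 2 (unadjusted p = 0.00872, adjusted p = 0.311), −0.29 without WT CFA+PTX, −0.11 without WT untreated replicate 1 and −0.08 without H3RKO CFA+PTX. Tlr1, whose protein completes the receptor for triacylated lipopeptides, differed by 0.09 ± 0.06 (−0.05 to 0.23) and Tlr6, whose protein completes that for diacylated lipopeptides, by 0.02 ± 0.07 (−0.14 to 0.17). Tlr1 and Tlr6 are next to each other on chromosome 5 in the GRCm38.p6 gene table, and over the 8 arrays the correlation of Tlr1 with Tlr2 was −0.73, as a description of arrays that share treatments.

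Cd14, the co-receptor that hands lipopolysaccharide and lipopeptides to TLR4 and TLR2, gave its highest values in both CFA+PTX arrays. Its log2 signal was 9.27 and 8.96 in untreated H3RKO LN and 9.06 and 8.71 in untreated WT LN, then 9.08 (H3RKO) and 9.05 (WT) after CFA and 9.38 (H3RKO) and 9.54 (WT) after CFA+PTX. Both CFA values lay among the untreated ones, and both CFA+PTX values lay above all other arrays. After CFA+PTX the mean was 9.46, against 9.0 in untreated LN, a difference of 0.46 ± 0.14 with a 95% interval of 0.13 to 0.79, which was not called (unadjusted p = 0.0128, adjusted p = 0.287, limma). Against CFA alone (mean 9.07), the difference was 0.39 ± 0.16, with an interval of 0.01 to 0.78 (unadjusted p = 0.0449, adjusted p = 0.891, limma). Both comparisons use the same CFA+PTX arrays. Without the WT CFA+PTX array, the one lowest in gland markers, these differences were 0.30 and 0.24, and without both arrays that stood apart they were 0.33 and 0.19. The mean of the monocyte and macrophage markers, cells that carry CD14, was 10.32 and 10.38 (H3RKO) and 10.41 and 10.26 (WT) in untreated LN, 10.28 (H3RKO) and 10.47 (WT) after CFA and 10.43 (H3RKO) and 10.67 (WT) after CFA+PTX. It was thus highest in the WT CFA+PTX array, where Cd14 was highest too, and its part in the Cd14 difference was not tested.

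Tlr4, which encodes the lipopolysaccharide receptor itself, differed by −0.01 ± 0.08 in injected against untreated LN (−0.19 to 0.17; adjusted p = 0.972, limma), and by 0.09 ± 0.09 from its other probe set. Tlr9, the endosomal receptor for unmethylated CpG DNA, differed by −0.14 ± 0.07 (−0.30 to 0.03; adjusted p = 0.527, limma), and its lowest value, 6.71, was in the WT CFA+PTX array. Myd88 differed by 0.08 ± 0.06 (−0.05 to 0.22; adjusted p = 0.646, limma). Its log2 signal stayed within 10.69 to 10.89 in all arrays. For these 3 genes a 2-fold change lies outside the 95% interval.

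Clec7a, whose protein Dectin-1 binds beta-glucans of fungi and is also engaged by mycobacteria, was the gene with the lowest p. Its log2 signal was 10.03 (H3RKO CFA), 10.18 (WT CFA), 10.23 (H3RKO CFA+PTX) and 10.25 (WT CFA+PTX), against 10.66 and 10.71 in untreated H3RKO LN and 10.54 and 10.37 in untreated WT LN. All 4 injected arrays were below all 4 untreated arrays, which held for 1 of the 9 genes and for 6.05% of all probe sets in either direction (2.98% lower). The mean was 10.17 ± 0.10 in injected LN and 10.57 ± 0.15 in untreated LN (SD, n = 4 each; exact permutation test, p = 0.0286, two-sided and the smallest that 4 against 4 allows, in 1 of 18 such tests). In limma the difference was −0.40 ± 0.08 (−0.59 to −0.20), or 1.32-fold lower, with an unadjusted p of 0.00195 and an adjusted p of 0.227. It was thus not called among all probe sets, at adjusted p = 0.113 to 0.582 over the alternatives and with differences between −0.47 and −0.32.

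The lower Clec7a signal appeared with each treatment on its own. After CFA the difference from untreated LN was −0.46 ± 0.10 (−0.70 to −0.22; unadjusted p = 0.00255, adjusted p = 0.541, limma), and after CFA+PTX it was −0.33 ± 0.10 (−0.57 to −0.09; unadjusted p = 0.0142, adjusted p = 0.291, limma). Both share the untreated arrays. Between CFA+PTX and CFA the difference was 0.13 ± 0.12. Of the cell types that carry Dectin-1, the 12 monocyte and macrophage markers had a mean log2 signal of 10.28 to 10.67 in injected and 10.26 to 10.41 in untreated arrays, and the 10 dendritic cell markers 10.09 to 10.16 in injected and 10.06 to 10.23 in untreated arrays. The 12 neutrophil markers ran from 7.78 to 8.61 in injected and 7.70 to 8.40 in untreated arrays. The list means of injected and untreated arrays thus overlapped for all 3 lists, though single markers did not all do so. Of the monocyte and macrophage markers 8 were higher and 4 lower in injected LN (median 0.10). At an unadjusted p under 0.05 in limma, 3 of them were higher and 0 lower (11.0% of all probe sets differed). Of the neutrophil markers 7 were higher and 5 lower (median 0.05), with 1 higher and 1 lower at such a p. Of the dendritic cell markers 6 were higher and 4 lower in injected LN (median 0.06). At an unadjusted p under 0.05 in limma, 1 was higher and 2 lower, against 11.0% of all probe sets. Xcr1 (7.08 to 7.66 in injected, 7.70 to 8.07 in untreated arrays) and Cd83 (11.21 to 11.42, 11.54 to 11.84) did not overlap. The 6 fat cell markers measured were all lower in injected LN (median −0.52). Of these 4 had an unadjusted p under 0.05 in limma, where 5.40% of all probe sets were lower at such a p. Their mean log2 signal, 9.81 to 10.29 in injected and 10.19 to 10.73 in untreated arrays, overlapped as well. The 7 gland markers were also lower (median −1.53, none at an unadjusted p under 0.05), and without both arrays that stood apart Clec7a differed by −0.42. The parts of fat, dendritic cells, monocytes and macrophages, and neutrophils in the Clec7a difference were not tested.

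Clec4e, whose protein Mincle binds trehalose dimycolate, the cord factor of mycobacteria, was not called by injection over both genotypes. The difference was −0.12 ± 0.17 (−0.52 to 0.28; adjusted p = 0.835, limma). It depended on single arrays, running between −0.29 (without WT untreated replicate 1) and 0.02 (without H3RKO CFA+PTX) with 1 array left out. Without both arrays that stood apart it was −0.36 (unadjusted p = 0.0271, adjusted p = 0.611, limma).

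Taken by treatment, 0 of the 9 genes were called after CFA (0% of all probe sets passed), after CFA+PTX (0%) or in CFA+PTX against CFA (0%) in limma. At an unadjusted p under 0.05 there was 1 gene after CFA (Clec7a, where 6.25% of all probe sets did so), 2 after CFA+PTX (Cd14 and Clec7a, 12.3%) and 1 in CFA+PTX against CFA (Cd14, 5.47%). The model without moderation gave 1, 1 (Clec7a both times) and 0 genes for these comparisons.

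**Figure D2:**
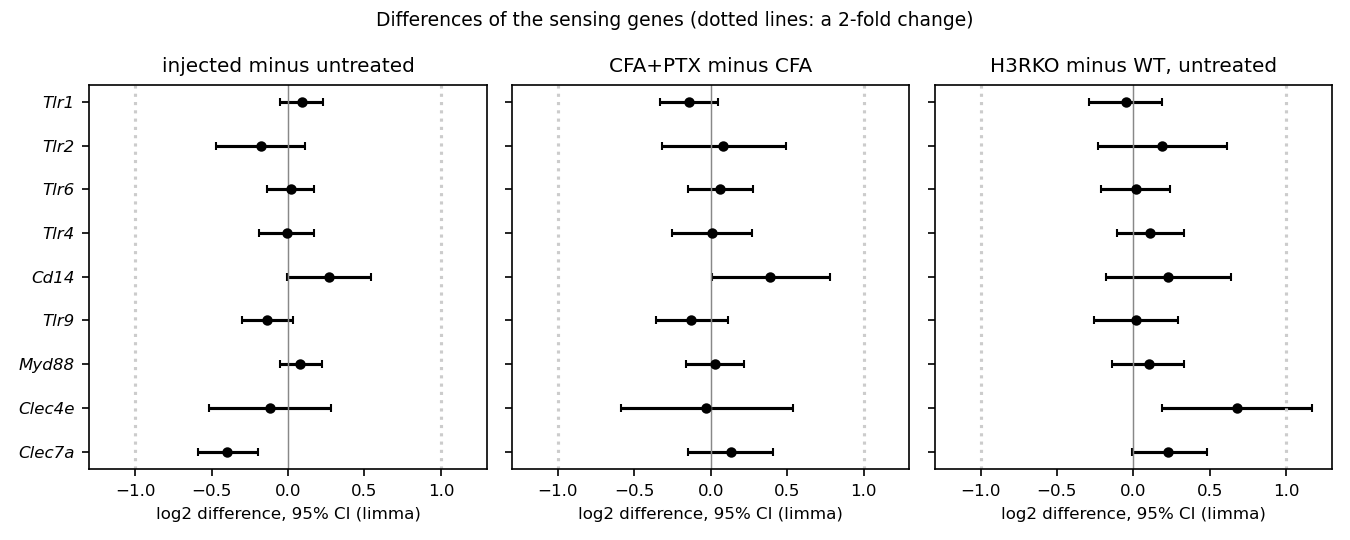
Log2 differences of the 9 sensing genes with 95% intervals from limma, for injected minus untreated LN (4 arrays each), CFA+PTX minus CFA (2 arrays each) and H3RKO minus WT in untreated LN (2 arrays each), with dotted lines at a 2-fold change. The intervals of Clec7a after injection (−0.59 to −0.20), Cd14 in CFA+PTX against CFA (0.01 to 0.78) and Clec4e by genotype (0.19 to 1.17) exclude 0 before adjustment, and that of Clec4e is the 1 interval that reaches past 2-fold.

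The genes around these receptors in the pathway were described by 7 lists, 106 of whose 130 genes were measured. In injected against untreated LN, 1 of the 106 was called in limma, Saa3, an acute phase protein gene that bacterial products induce in the mouse. Its log2 signal was 10.86 (H3RKO CFA), 10.46 (WT CFA), 10.78 (H3RKO CFA+PTX) and 11.11 (WT CFA+PTX), against 8.37 and 8.41 in untreated H3RKO LN and 7.38 and 8.32 in untreated WT LN. All 4 injected arrays lay far above all 4 untreated arrays. Saa3 rose by 2.68 ± 0.23 (2.16 to 3.21), or 6.43-fold, with an adjusted p of 0.0283 (limma). With 1 array left out, the difference ran between 2.44 and 2.89, and Saa3 was no longer called in 7 of 8 cases (adjusted p = 0.0533 to 0.146). It was still called without WT untreated replicate 1 (adjusted p = 0.0166). Without both arrays that stood apart it was 2.34 (adjusted p = 0.0281).

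Of the 24 induced targets measured, Saa3 was the 1 called, 11 were higher and 13 lower in injected LN, and the median was −0.03. The other lists had no call. Among 15 inhibitors of the pathway, 11 were higher and 4 lower (median 0.06), and Dusp1, a phosphatase of MAP kinases, had the lowest p (0.58 ± 0.08, adjusted p = 0.109, limma). Among 17 further C-type lectin and scavenger receptors, 11 were higher and 6 lower (median 0.07), and Clec5a, a lectin receptor of myeloid cells, had the lowest p (−0.37 ± 0.06, adjusted p = 0.138). Among 12 further TLR and co-receptors, 9 were higher and 3 lower (median 0.05), led by Lbp, the lipopolysaccharide-binding protein (0.40 ± 0.08, adjusted p = 0.214).

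Among 13 signalling adaptors and kinases, 8 were higher and 5 lower (median 0.06), led by Syk, the kinase downstream of Mincle and Dectin-1 (0.22 ± 0.05, adjusted p = 0.266, limma). Of 11 NOD-like, DNA and RNA sensors, 7 were higher and 4 lower (median 0.07), with Naip5, a sensor of flagellin, having the lowest p (0.31 ± 0.09, adjusted p = 0.327). Of 14 NF-kB and IRF transcription factors, 9 were higher and 5 lower (median 0.03), with Cebpd, which encodes a transcription factor of the acute phase response, having the lowest p (0.42 ± 0.13, adjusted p = 0.334). At an unadjusted p under 0.05 in limma, the NOD-like, DNA and RNA sensors had 4 genes higher and 1 lower, and the inhibitors 4 and 0. The transcription factors had 3 higher and 1 lower, and the induced targets 3 and 2. The further TLR and co-receptors had 2 higher and 1 lower, and the adaptors and kinases 2 and 0. Of the 17 lectin and scavenger receptors 6 differed at such a p, 2 higher and 4 lower, where 11.0% of all probe sets did. These include, chosen after their values were seen, Clec10a, a galactose-binding lectin of macrophages and dendritic cells (0.49 ± 0.08, adjusted p = 0.139), and Cd209a, a lectin of dendritic cells (−0.69 ± 0.13, adjusted p = 0.196). The lectin list thus held values on both sides of 0, as did Clec7a and Cd14 among the 9 genes.

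**Figure D3:**
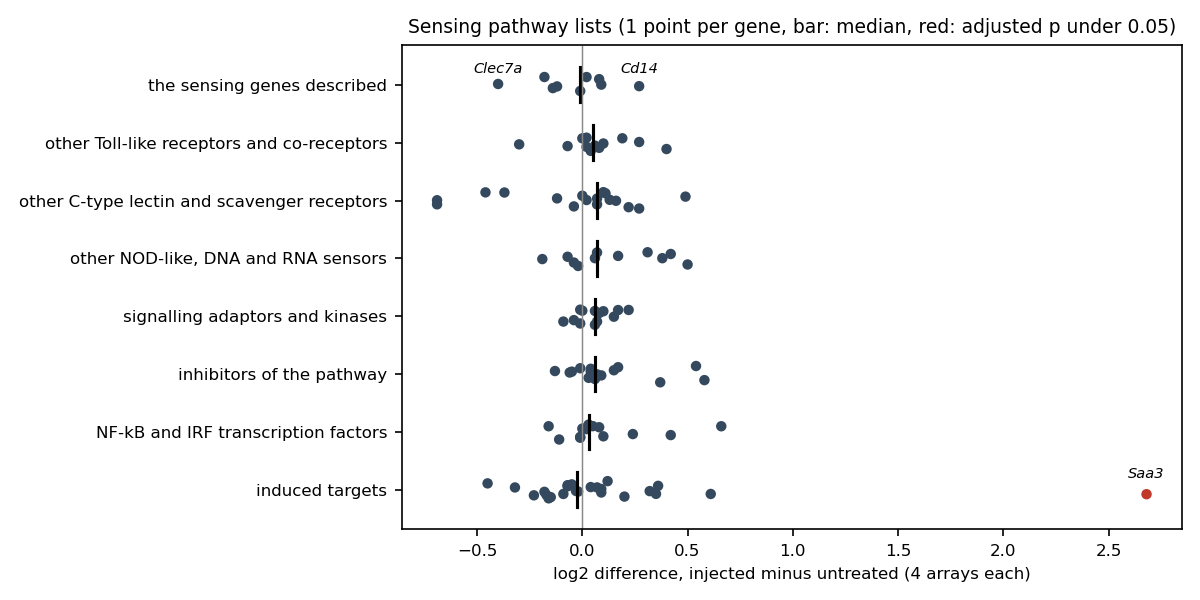
Log2 difference of injected minus untreated LN (4 arrays each) for the 9 sensing genes and the 106 measured genes of 7 pathway lists, 1 point per gene, with a bar at each list's median and red for an adjusted p under 0.05 in limma. The list medians lie between −0.03 and 0.07, and Saa3, at 2.68, is the 1 red point.

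The second comparison asked whether H3RKO and WT LN differed in these genes. Over all treatments 0 of the 9 genes were called in limma (0% of all probe sets passed), none had an unadjusted p under 0.05 in limma or without moderation (3.64% of all probe sets did in limma), and none had groups of 4 and 4 that did not overlap (1.68%). Clec4e had the lowest p, with 7.45 ± 0.29 in H3RKO and 7.09 ± 0.24 in WT arrays (SD, n = 4 each; exact permutation test, two-sided, p = 0.114). Its difference was 0.36 ± 0.17 (−0.04 to 0.76), and those of the other 8 genes ran between −0.04 and 0.08, all at adjusted p = 0.999 (limma).

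Within a treatment, the study's criterion of an unadjusted p under 0.05 with a fold change over 2 was used, in limma with 6 group means. The untreated pairs supply its spread, and a treated array is taken to vary as they do. In untreated LN 0 of the 9 genes met the criterion, as did 0.150% of all probe sets, and 0 of the 9 had an adjusted p under 0.05 (0.00884% of all probe sets). At an unadjusted p under 0.05 alone, 1 gene (Clec4e) differed in limma, where 5.43% of all probe sets did, and 0 without moderation. Of the 9 genes 8 were higher and 1 lower in H3RKO, with a median of 0.11 against −0.01 over all probe sets. Both H3RKO arrays lay above both WT arrays for 3 genes (Clec4e, Clec7a and Tlr4), as they did for 15.5% of all probe sets, with 33.4% not overlapping in either direction.

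Clec4e had a log2 signal of 7.83 and 7.52 in untreated H3RKO LN and 6.74 and 7.25 in untreated WT LN. The mean was 7.67 in H3RKO and 6.99 in WT LN, a difference of 0.68 ± 0.20 (0.19 to 1.17), or 1.6-fold, at an unadjusted p of 0.0156 and an adjusted p of 0.916 (limma). The size depended on the first WT pool, the one low in gland markers, without which the difference was 0.42 (unadjusted p = 0.0501), while without the second WT pool it was 0.93. The other, dimmer probe set of Clec4e gave 0.14 ± 0.09 (unadjusted p = 0.168), and the mean of both probe sets 0.41.

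Clec7a followed with 10.66 and 10.71 in untreated H3RKO and 10.54 and 10.37 in untreated WT LN, a difference of 0.23 ± 0.10 (−0.01 to 0.48; adjusted p = 0.916, limma). Tlr4 differed by 0.11 ± 0.09 (−0.11 to 0.33; adjusted p = 0.951, limma), with 7.85 and 7.92 in untreated H3RKO and 7.82 and 7.73 in untreated WT LN. For Cd14 (0.23 ± 0.16), Tlr2 (0.19 ± 0.17) and Myd88 (0.10 ± 0.09) the untreated H3RKO and WT arrays overlapped.

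On chromosome 6 in the GRCm38.p6 gene table, Clec4e lies next to Clec4d (Dectin-3), which in turn lies next to Clec4n (Dectin-2), lectin genes whose proteins also bind mycobacterial or fungal glycans. Clec4d had a log2 signal of 6.98 and 6.72 in untreated H3RKO LN, against 5.61 and 5.67 in untreated WT LN and 5.42 to 5.66 in the 4 injected arrays. The 2 untreated H3RKO arrays stood above the other 6. By genotype in untreated LN Clec4d differed by 1.21 ± 0.11, which met the study's criterion but not the adjusted threshold (adjusted p = 0.148, limma). Clec4n had 11.65 and 11.51 in untreated H3RKO and 11.12 and 11.38 in untreated WT LN (0.33 ± 0.12; unadjusted p = 0.0364, adjusted p = 0.916).

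Of the 17 further lectin and scavenger receptors, 2 met the criterion in untreated LN (0.150% of all probe sets did), Clec4d and Fpr2, a formyl peptide receptor of neutrophils (1.05 ± 0.09, adjusted p = 0.0924, limma), and 6 had an unadjusted p under 0.05, all higher in H3RKO (5.43% of all probe sets had such a p, and 2.67% were higher). In untreated LN most neutrophil markers were higher in H3RKO as well. Of the 12 measured markers of 15 listed, 11 were higher in untreated H3RKO than in untreated WT LN, with a median of 0.52, and S100a8 and S100a9 met the criterion. As a mean over the markers the log2 signal was 8.40 and 8.23 in untreated H3RKO and 7.70 and 7.76 in untreated WT LN. It was 8.06 (H3RKO) and 7.90 (WT) after CFA and 8.61 (H3RKO) and 7.78 (WT) after CFA+PTX. Clec4e and Clec4d were not high in the H3RKO CFA+PTX array, the one with the highest neutrophil mean, at 7.17 and 5.59. Not all of the markers behind that mean moved together. After CFA+PTX 10 were higher and 2 lower in H3RKO than in WT LN (median 1.07). In the H3RKO CFA+PTX array S100a8 (11.09), S100a9 (10.83), Ngp (9.85), Ltf (8.21), Cxcr2 (8.54), Mpo (7.82) and Elane (8.18) had their highest values of all arrays. Csf3r (8.75) and Itgam (8.47) had their lowest there, and Mmp8, Mmp9 and Camp were at neither end. The part of neutrophils in the genotype difference of Clec4e was not tested.

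**Figure D4:**
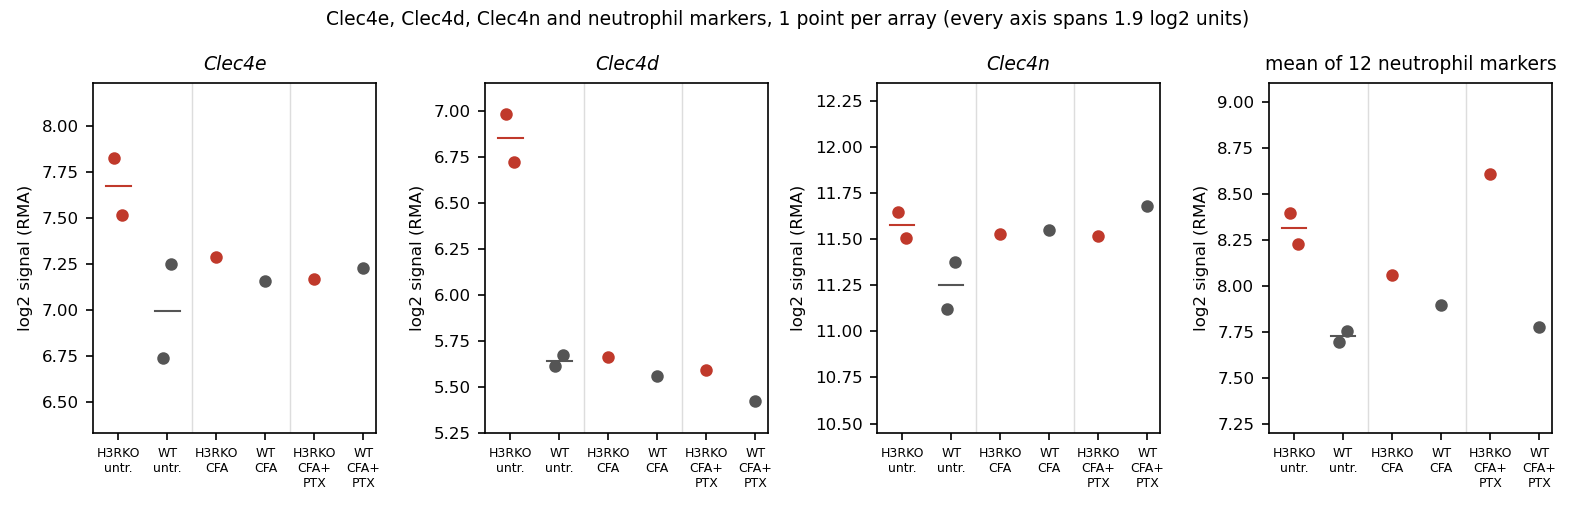
Log2 signal (RMA) of Clec4e, Clec4d, Clec4n and the mean of 12 neutrophil markers in each of 8 LN arrays, H3RKO in red and WT in grey, with lines at the mean of the 2 untreated arrays. Clec4e and Clec4d were highest in untreated H3RKO LN (7.52 to 7.83 and 6.72 to 6.98). The neutrophil mean was highest in the H3RKO CFA+PTX array (8.61), where not all of its markers moved together.

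After injection, no gene differed between genotypes by the criterion. After CFA 0 of the 9 met it (0.225% of all probe sets did), none had an unadjusted p under 0.05 in limma (3.38%) or without moderation, and the differences ran between −0.16 (Clec7a, ± 0.14) and 0.14 (Clec4e, ± 0.28). After CFA+PTX 0 of the 9 met it (0.362%), again with none at an unadjusted p under 0.05 in either model (3.24% in limma). There the lowest values were those of Tlr4 (−0.27 ± 0.13), Tlr2 (−0.25 ± 0.24) and Tlr6 (−0.23 ± 0.13), and Clec4e was at −0.06 ± 0.28. In these 3 TLR the WT CFA+PTX array, the one lowest in gland markers, was higher than the H3RKO one, with 7.69 (H3RKO) and 7.96 (WT) for Tlr4, 8.78 (H3RKO) and 9.04 (WT) for Tlr2, and 6.96 (H3RKO) and 7.19 (WT) for Tlr6. Of the 12 monocyte and macrophage markers, 10 were lower and 2 higher in H3RKO than in WT LN after CFA+PTX (median −0.26, none at an unadjusted p under 0.05). The other probe set of Tlr4 gave −0.21 after CFA+PTX, and after CFA it gave −0.19 where the brighter one gave 0.07. With 1 array per genotype, these differences have no replicate check of their own.

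The last comparison was whether the change after injection differed between genotypes. For the interaction 0 of the 9 genes met the criterion (0.203% of all probe sets did), and 0 had an unadjusted p under 0.05 in limma (4.78%) or without moderation. Clec4e differed from untreated LN by −0.44 in H3RKO and 0.20 in WT mice, an interaction of −0.64 ± 0.28 (−1.34 to 0.06; unadjusted p = 0.0648, adjusted p = 1, limma). Clec7a differed by −0.56 in H3RKO and −0.24 in WT mice, an interaction of −0.32 ± 0.14 (−0.66 to 0.02; unadjusted p = 0.0614, adjusted p = 1). For Clec4e the interaction rests on the untreated arrays, since the 4 injected arrays lay between 7.16 and 7.29 in both genotypes. Without both arrays that stood apart it was −0.28 for Clec4e and −0.48 for Clec7a. Tlr2 differed by −0.31 in H3RKO and −0.06 in WT mice and Cd14 by 0.12 in H3RKO and 0.41 in WT mice. Over the 9 genes the interaction had a median of −0.21 (1 higher, 8 lower), against 0.01 over all probe sets. It subtracts the genotype difference of the same untreated arrays, in which 8 of the 9 genes were higher in H3RKO. The counts are thus not separate results.

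The 9 genes did not form a single pattern over the 8 arrays. Of their 36 pairs, 20 had a Pearson correlation above 0, with a median of 0.07. The highest were Tlr4 with Tlr6 (0.77), Tlr2 with Clec7a (0.69) and Tlr2 with Tlr4 (0.66), and the lowest Tlr1 with Tlr2 (−0.73), Tlr1 with Clec7a (−0.72) and Tlr9 with Cd14 (−0.71). The points share treatments and genotypes, so these are descriptions.

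Among 439 genes whose SD over the 8 arrays was above 0.3, those most like each sensing gene were named by Pearson correlation of log2 signal over the 8 arrays. Clec7a was closest to Cd209a (0.96), Medag (0.95), a gene of fat cell precursors, and Fn1 (0.90), which encodes fibronectin. Clec4e was closest to Vcan (0.91), which encodes the proteoglycan versican, Slfn4 (0.87), which interferon induces in macrophages, and Timp1 (0.85), an inhibitor of matrix metalloproteinases. Cd14 was closest to Adh1 (0.96), an alcohol dehydrogenase, Il7r (0.92), the interleukin-7 receptor, and Map3k6 (0.92), a stress-activated kinase. Myd88 was closest to the chemokine gene Ccl12 (0.88), Eps8l1 (0.88) and the Fc receptor gene Fcgr4 (0.87).

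For Tlr2 the closest were Cd209a (0.80), Tgfbr3 (0.78), a co-receptor of TGF-beta, and Frzb (0.76), a secreted antagonist of Wnt proteins. Tlr6 was closest to Tgfbr3 (0.81), Ushbp1 (0.80) and Stk31 (0.79), and Tlr9 to Fabp7 (0.86), Serpinh1 (0.83) and Birc5 (0.81). The least alike were Tlr4, closest to the muscle genes Tnnc2 (0.77) and Myh4 (0.70) and to Tgfbr3 (0.70), and Tlr1, closest to the immunoglobulin genes Igkv6-20 (0.72) and Igk (0.71) and to Fabp1 (0.64). Over 8 arrays and 439 genes, correlations of this size are found by search and carry no test.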

How the data were processed

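LN RNA of 8 pools of mice was hybridized to Affymetrix mouse arrays. The authors used the Robust Multichip Average (RMA) in Partek Genomic Suite 6.6 to correct background, normalize and summarize each probe set, which gave the log2 values they deposited, running from 2.42 to 14.4 with a median of 7.97. Normalization to a common distribution means that a shift shared by all genes cannot be seen.

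Of 22690 probe sets, 64 controls were set aside. The platform annotation paired 20380 of the other 22626 with 1 gene, 691 with several and 1555 with none. A gene is given by its brightest probe set.

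Fits used limma 3.58.1 (lmFit, eBayes) in R 4.3.3. Treatment effects and the overall genotype difference came from an additive model (4 residual degrees of freedom, prior 3.28), called at a Benjamini-Hochberg adjusted p under 0.05. Genotype differences within a treatment and the interaction came from a model of 6 group means (2 residual degrees of freedom, prior 3.58), called by the criterion of the study (fold change over 2 with unadjusted p under 0.05). The scripts were tested on simulated data. The genes and lists were chosen with earlier results of these data known. Named list genes are those called in injected against untreated, up to 4 a list, or else the 1 with the lowest p. For each member, the 3 most alike genes were named. Clec4d, Clec4n, Fpr2, Clec10a and Cd209a were named as list members after their values were seen.

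Alternatives were quantile normalization again, centring on array medians, leaving out dim or possibly cross-hybridizing probe sets, no moderation, a trend with robust fitting, a replicate block, the mean of a gene's probe sets, group means for the additive contrasts, the other call rule, only the untreated arrays and each array left out. Leaving out both arrays low in gland genes was added after seeing the data. The number of arrays limits the precision. Exact tests used scipy 1.17.1 and plots matplotlib 3.10.9.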

Additional observations from a re-analysis of the deposited data

How the results depend on the processing

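Under every alternative run, including those with 1 array left out, the number of the 9 genes called stayed at 0 in all 9 comparisons (162 counts). In the main fits the call rules passed 0% to 0.362% of all probe sets, so counts of 0 of 9 say little about these genes. Some alternatives also leave a comparison as it was. Clec4e in untreated LN stayed at 0.68 without a treated array, and the other call rule recomputes no difference. None of the 1458 differences of single genes under an alternative was called, and 95 of them, none called, changed sign. Clec4e in untreated LN ran between 0.41 and 0.93 and Cd14 in CFA+PTX against CFA between 0.19 and 0.55. Saa3 after injection was not called without moderation (adjusted p = 0.362), with a trend and robust fitting (0.0555) or with group means (0.0586). The labels link untreated arrays of the same replicate number by that number alone. The correlation of their deviations was 0.123, which with 2 pairs cannot show whether they share a batch. With the replicate block 0 of the 9 genes were called in each comparison. A lone treated array left out gives no genotype difference for its treatment. With 8 arrays, small changes were not detectable. The intervals given are not adjusted for the number of probe sets, and some differences whose intervals excluded 0, such as that of Clec7a after injection, were not called either.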
